A study of Mus musculus with 2 samples.

Results

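The forkhead genes encode a family of transcription factors that share the forkhead DNA-binding domain. They were examined in the open chromatin of cardiac progenitor cells (CPCs), and a peak was counted for the family when the gene symbol paired with it in the peak list was Fox, a letter from a to s and a number. By this rule 97 of 26232 distinct ATAC-Seq peaks belonged to 34 forkhead genes on 15 chromosomes, out of 44 forkhead genes in the RefSeq gene table. The choice of peaks used the symbol alone, so their number per gene, their distance and their width are measurements.

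ATAC-Seq, in which the Tn5 transposase cuts and tags accessible DNA, was performed on CPCs at day 5 of directed differentiation. The cells came from E14 Tg(Nkx2-5-EmGFP) mouse embryonic stem cells, which carry a green fluorescent reporter for Nkx2-5, a factor of early heart cells. They were differentiated with BMP4, Activin A, VEGF, bFGF and FGF10. The single group held 2 replicates, both labelled strain C57BL/6 and neither treated, and the authors deposited 1 list of peaks shared by them. All cells derive from 1 reporter line, and the protocol in the labels names no sorting step for these libraries. The list holds no value for a single replicate, so depth was unknown, no replicate error could be given and no comparison between conditions was possible. A region without a peak in the list was not shown to be closed.

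Forkhead factors bind DNA as monomers through a winged-helix domain, and several, with Foxa2 the best known, can bind their sites on nucleosomes and open them. In the embryo they act early: Foxh1 works with Smad proteins downstream of Nodal, Foxc1 and Foxc2 pattern mesoderm and the great vessels, Foxf1 marks the splanchnic mesoderm, and Foxa2 specifies endoderm. The FoxO factors respond to insulin signalling in many cell types, and Foxp1 and Foxp4 take part in heart muscle growth and heart tube formation.

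The peaks were first searched for the letters TGTTTAC, the core of the forkhead binding sequence, on both strands of the central 300 bp. Of the 97 peaks, 9 held it (9.28%, 95% Wilson confidence interval 4.96 to 16.7%), compared with 3.64% of all 26232 peaks over windows of the same length. With the looser letters TNTTTNC the shares were 40.2% and 38.3%, and among peaks wider than the median of all peaks the exact letters were in 3 of 56 (5.36%) and in 2.37% of all peaks so filtered. The 9 matches are printed with mm9 coordinates, each on the strand that reads TGTTTAC, with the matched letters in capitals. Those at Foxp1 and Foxo1 were shown by a rule on heart genes and on the gene with most peaks, and the others were chosen after their values were seen.
Foxp1 +155828 bp, chr6:98822346-98822392, plus strand: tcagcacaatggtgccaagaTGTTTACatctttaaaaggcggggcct
Foxo1 +145167 bp, chr3:52217474-52217520, minus strand: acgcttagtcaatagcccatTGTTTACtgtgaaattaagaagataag
Foxa2 -44862 bp, chr2:147917655-147917701, plus strand: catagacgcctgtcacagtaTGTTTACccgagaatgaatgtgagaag
Foxa2 +138893 bp, chr2:147732254-147732300, plus strand: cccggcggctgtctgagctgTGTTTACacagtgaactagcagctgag
Foxa2 +139534 bp, chr2:147731601-147731647, plus strand: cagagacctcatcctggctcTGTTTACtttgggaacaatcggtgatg
Foxb1 +90317 bp, chr9:69518333-69518379, plus strand: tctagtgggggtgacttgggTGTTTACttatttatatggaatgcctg
Foxk1 -416314 bp, chr5:142461130-142461176, minus strand: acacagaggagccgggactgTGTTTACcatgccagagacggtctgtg
Foxk1 +14958 bp, chr5:142892384-142892430, minus strand: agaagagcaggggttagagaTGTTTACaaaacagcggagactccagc
Foxp2 -250 bp, chr6:14850946-14850992, plus strand: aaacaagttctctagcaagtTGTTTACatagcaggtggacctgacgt

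The number after each name is the signed distance in the list, from the assigned transcription start site (TSS) to the peak midpoint, with negative values upstream. The 9 matches fell in peaks of 6 genes, and Foxa2 held 3 of them. Beyond 10 kb of a start site 8 of 54 forkhead gene peaks held the letters (14.8%, 7.70 to 26.6%), against 5.64% of all peaks at that distance. The Foxa2 peaks at +138893 bp and +139534 bp are only 10 bp apart, and the interval counts them as separate peaks. Within 1 kb the match was in 1 of 29 peaks (3.45%, 0.611 to 17.2%), against 1.71% of all peaks there. The match near Foxo1 also has the GATA letters agataa in the printed flank. A match of letters is not a measured binding site.

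The letters AGATAA, bound by GATA factors such as Gata4 of the heart, and CTAATG, from the homeodomain sequence recognised by Isl1, were searched in the same windows, each counted on its own even where bases of different motifs might overlap. AGATAA or its reverse complement TTATCT was in 13 forkhead gene peaks (13.4%, 95% Wilson confidence interval 8.0 to 21.6%) of 9 genes, against 9.48% of all peaks. CTAATG was in 6 peaks (6.19%, 2.87 to 12.8%) of 6 genes, against 6.53% of all peaks. Both of these overall shares lay inside the interval of the forkhead gene peaks. The GATA letters occurred more than once in 4 peaks and the Isl1 letters in 2. Examples on the plus strand with a pair of matches in capitals, on either strand, show 2 heart and mesoderm genes, the gene with most peaks, and 1 pair of Isl1 matches, and they were chosen after their values were seen.
Foxc1 -12984 bp, chr13:31885427-31885557, plus strand: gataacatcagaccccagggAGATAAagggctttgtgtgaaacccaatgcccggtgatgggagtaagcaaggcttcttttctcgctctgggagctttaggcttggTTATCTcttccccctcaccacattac
Foxl1 +188401 bp, chr8:123839872-123840043, plus strand: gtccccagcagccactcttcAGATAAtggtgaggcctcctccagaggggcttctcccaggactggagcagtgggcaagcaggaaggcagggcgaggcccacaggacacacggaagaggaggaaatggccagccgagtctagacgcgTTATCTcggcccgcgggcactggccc
Foxo1 -14062 bp, chr3:52058167-52058270, plus strand: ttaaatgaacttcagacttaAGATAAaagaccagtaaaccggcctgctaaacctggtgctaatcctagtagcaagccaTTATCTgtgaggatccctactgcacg
Foxn2 -106653 bp, chr17:88733400-88733462, plus strand: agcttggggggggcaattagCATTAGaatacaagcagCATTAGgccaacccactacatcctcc

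These pairs stood 85 bp, 126 bp, 58 bp and 17 bp apart, counted from the first base of one match to the first base of the other. Of the 13 peaks with GATA letters 12 lay beyond 10 kb (22.2% of 54, 13.2 to 34.9%), against 15.8% of all peaks at that distance. All 6 peaks with Isl1 letters also lay beyond 10 kb (11.1%, 5.19 to 22.2%), against 10.3% of all peaks there. None of the 29 forkhead gene peaks at start sites held either set of letters, which allows a share of up to 11.7% by the Wilson interval, while 3.27% of all start site peaks held the GATA letters and 2.72% the Isl1 letters.

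**Figure D1:**
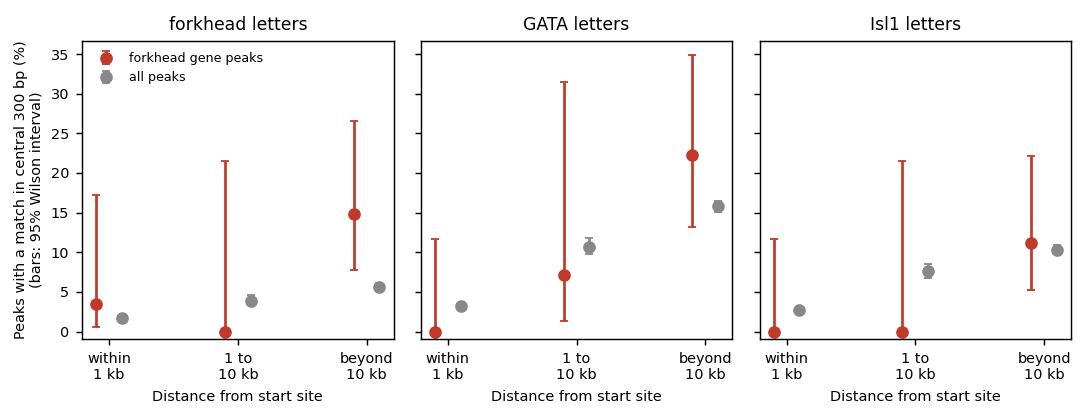
Share of peaks (%) with a match in the central 300 bp to the forkhead, GATA and Isl1 letters, by distance from the assigned start site, for forkhead gene peaks (red) and all peaks (grey), with 95% Wilson intervals as bars. The forkhead letters beyond 10 kb show the widest separation, at 14.8% against 5.64%, and the intervals of the forkhead gene peaks are broad because each holds 14 to 54 peaks.

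Of the 44 forkhead genes 27 had a peak within 1 kb of the assigned start site, and most of these peaks were wide and lay over sequence rich in CpG dinucleotides. A different count took any peak that overlapped the promoter (500 bp on either side of the first coding TSS). By this count 29 of 43 forkhead promoters overlapped a peak (67.4%), against 53.7% of all coding promoters. Of the CpG-rich ones 24 of 30 did (80.0%), against 89.4%. Of the 29 forkhead peaks within 1 kb of a start site 7 were narrower than the median of 1326 bp over all start site peaks. The widest start site peaks were those of Foxo3 (5357 bp), Foxp4 (3275 bp) and Foxc1 (3128 bp). The 100 bases just upstream of the annotated TSS of each are printed in the direction of the gene, with every CG in capitals, to show this composition.
Foxo3 +608 bp, chr10:41996562-41996661, minus strand: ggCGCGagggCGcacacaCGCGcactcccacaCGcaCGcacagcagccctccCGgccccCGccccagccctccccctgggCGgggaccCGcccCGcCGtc
Foxp4 +125 bp, chr17:48061595-48061694, minus strand: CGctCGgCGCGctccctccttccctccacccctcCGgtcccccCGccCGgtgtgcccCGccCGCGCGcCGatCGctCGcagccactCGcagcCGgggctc
Foxc1 +723 bp, chr13:31898415-31898514, plus strand: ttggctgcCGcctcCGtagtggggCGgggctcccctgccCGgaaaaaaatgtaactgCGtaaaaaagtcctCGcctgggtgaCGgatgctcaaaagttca

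These stretches hold 13, 16 and 7 CG dinucleotides. Over the 29 forkhead peaks with a midpoint within 1 kb of the assigned TSS, the median GC content was 64.0% and the median ratio of observed to expected CpG was 0.821, against 58.6% and 0.685 over all 11772 peaks at that distance.

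Forkhead genes with a peak often had several. Of the 44 forkhead genes 34 had at least 1 peak (77.3%, 63.0 to 87.2%), compared with 62.5% of 21900 protein coding genes. Among genes with a peak the mean was 2.85 peaks for forkhead genes and 1.71 for all 15351 genes in the list. The medians were 2 and 1. The 15351 genes include noncoding ones, also in the shares that follow, while 13682 of the 21900 coding genes had a peak. There were 13 forkhead genes with 1 peak, 8 with 2, and 13 with 3 or more (38.2%, 23.9 to 55.0%), against 16.5% of all genes with a peak. A further step up, 8 genes had 5 or more peaks (23.5%, 12.4 to 40.0%), against 3.54% of all genes. The intervals cover counting error over the genes or peaks of this list, and peaks of 1 gene are not independent of each other.

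Counts of peaks per gene rose with the space around the gene. The territory of a gene was the stretch that reached midway to the nearest coding start site on either side, and its median was 96.6 kb for 43 forkhead genes and 47.4 kb for 18190 coding genes. In territories up to 50 kb forkhead genes had a mean of 0.692 peaks (13 genes), against 0.744 for all genes. At 50 to 200 kb the means were 1.88 (16 genes) and 1.41. Above 200 kb they were 3.79 (14 genes) and 2.06, while the median there was 2 peaks in both. Per 100 kb of territory forkhead genes had 1.32 peaks (92 peaks, without those of Foxl1, which has no territory here) and all genes 1.01. The higher mean above 200 kb with an equal median went with a few genes of many peaks, Foxo1, Foxp1, Foxa2 and Foxk1, and these differences were not tested.

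**Figure D2:**
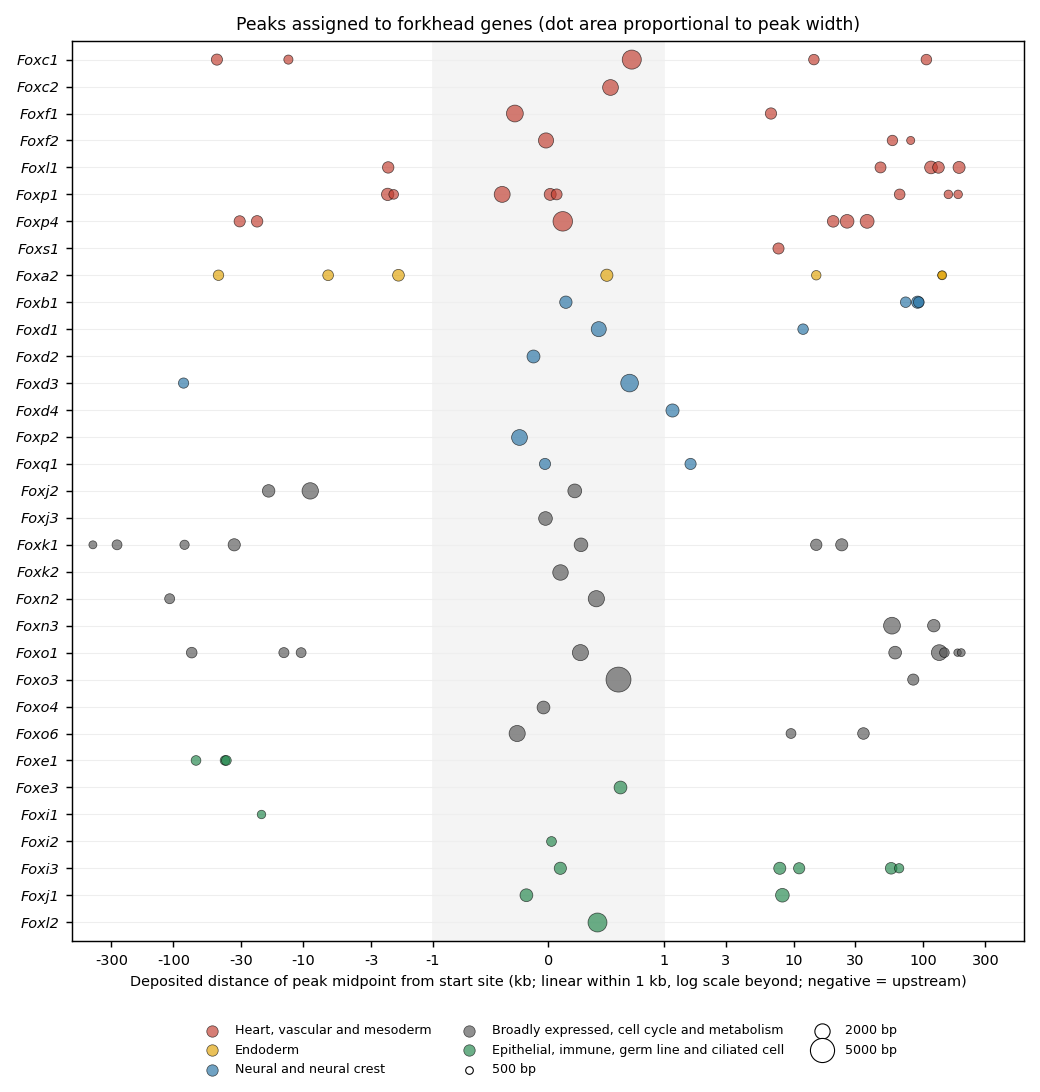
Forkhead gene peaks, each as a dot at its signed distance from the assigned start site (kb, linear within 1 kb and log scale beyond), 1 row per forkhead gene, coloured by role, with dot area proportional to peak width and 1 gene with 1 peak left out. A dot lies inside the grey band of 1 kb for 27 genes, where the dots are larger, and Foxo1, Foxp1, Foxa2 and Foxk1 have the most dots, at 9, 8, 7 and 7.

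Among the genes of heart, vessels and mesoderm, 8 of 9 had a peak, beside 62.5% of all coding genes. They held 31 peaks with a median width of 1132 bp, of which 8 lay within 1 kb of a TSS and 18 beyond 10 kb. The median over the 9 genes was 3 peaks per gene.

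Foxp1, which acts in outflow tract and heart muscle development, had 8 peaks, the most of this group. The distances were measured from 3 start sites spread over 493 kb, and each had a peak, at -400 bp (2186 bp wide), 16 bp (1234 bp wide) and 72 bp (1029 bp wide). The peak at -400 bp had a neighbour at -2233 bp (1320 bp wide) across a gap of 80 bp, and the peak at 16 bp had one at -2006 bp (808 bp wide). The start sites of Foxp1 therefore differed in their peaks. The widest lay at the start site farthest upstream, which GENCODE vM1 does not list for Foxp1 and places in an intron of Eif4e3, and the peak at 72 bp had only 49.2% GC. The last 3 peaks were within the gene at 65672 bp (990 bp wide) and past its end at 155828 bp and 185188 bp, each of these 638 bp wide.

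Foxp4, needed for fusion of the heart tube, had 6 peaks and the widest start site peak of the group, 3275 bp at 125 bp. Upstream it had peaks at -30801 bp (1084 bp wide) and -22620 bp (1139 bp wide). Inside the gene, peaks at 20197 bp, 25855 bp and 36875 bp were 1174, 1614 and 1659 bp wide. All 6 lay within 36875 bp of the assigned TSS, a compact pattern beside that of Foxp1, and the peak at 36875 bp was 393 bp from another GENCODE start site of Foxp4.

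Foxc1 and Foxc2, close relatives that act together in somites, pharyngeal arch arteries and the outflow tract, differed in number of peaks. Foxc1 had 5, at -46125 bp (1078 bp wide), -12984 bp (724 bp wide), 723 bp (3128 bp wide), 14344 bp (956 bp wide) and 105498 bp (969 bp wide). Both peaks downstream lay in introns of Gmds, the next gene. Foxc2 had 1 peak, 2133 bp wide at 537 bp. Each gene thus had a wide peak that covered its start and ran into the gene, and both have a single exon, of which the peaks covered 57.3% in Foxc1 and 59.0% in Foxc2.

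Foxf1 of the splanchnic and lateral mesoderm and Foxf2 of gut and palate mesenchyme are targets of Hedgehog signalling. Foxf1 had a peak of 2437 bp at -290 bp and one of 1108 bp at 6700 bp. Foxf2 had a peak of 1980 bp at -20 bp and narrower ones at 57768 bp (942 bp wide) and 79857 bp (563 bp wide). Both start site peaks were centred upstream of or on the TSS, unlike those of Foxc1 and Foxc2.

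Foxl1, a gene of gut mesenchyme, had 5 peaks and none within 1 kb of its start. They lay at -2212 bp (1132 bp wide), 46759 bp (1043 bp wide), 114512 bp (1398 bp wide), 130702 bp (1168 bp wide) and 188401 bp (1252 bp wide), and all 5 midpoints fell in introns of the annotated locus Gm20388. Foxs1, expressed in perivascular and neural crest derived cells, had 1 peak of 1070 bp at 7546 bp and none at its start. Foxh1, the Smad partner in Nodal and Activin signalling, had no assigned peak. Its nearest peak was that at the start of Ppp1r16a, centred at -2070 bp from the Foxh1 start with a width of 1964 bp, and that of Kifc2 stood at 9196 bp, so peaks flanked the gene on both sides.

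Several of these genes are neighbours. Foxf1, Foxc2 and Foxl1 lie on chromosome 8 with start sites spanning 43.6 kb, and 7 peaks were found within 50 kb of that span. Of these, 5 were assigned to the forkhead genes, and 2 peaks between Foxf1 and Foxc2 were assigned to Mthfsd, one of them at its own start site and at -7970 bp from Foxc2. On chromosome 13, Foxq1 and Foxf2 start 67.6 kb apart with 3 peaks within 50 kb of them, while the other 2 peaks of Foxf2, at 57768 bp and 79857 bp, lay outside that window, and Foxc1 starts 180.8 kb beyond Foxf2. On chromosome 4, Foxd2 and Foxe3 start 17.2 kb apart with 1 peak each. Assignment to the nearest start site splits the peaks of such regions between neighbours, and it does not measure which gene a peak serves.

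**Figure D3:**
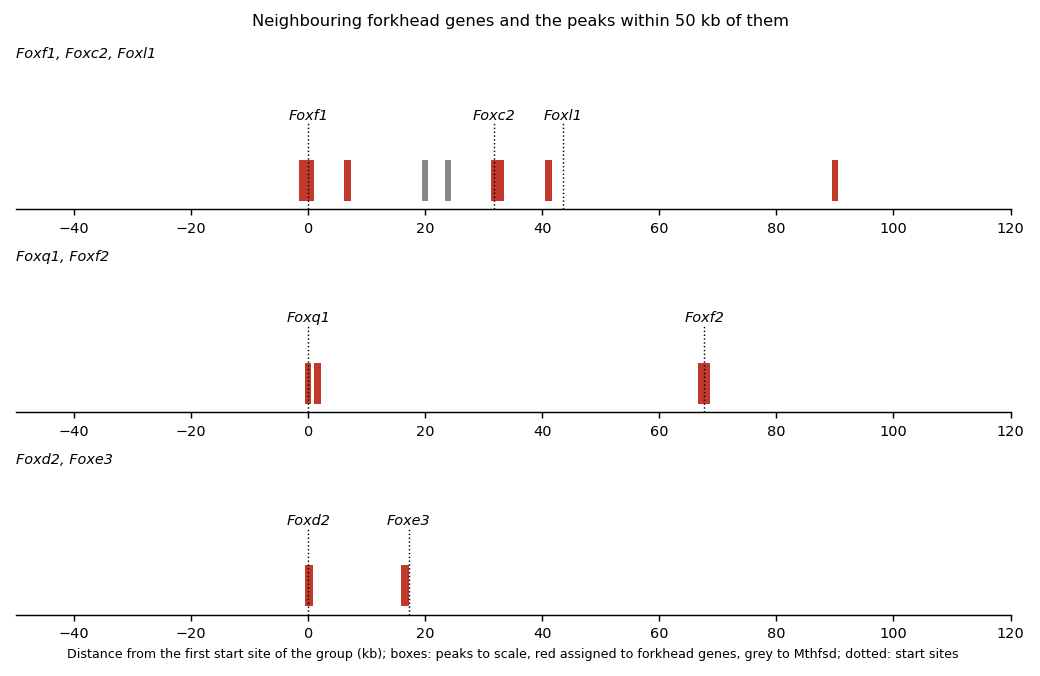
Maps of 3 groups of forkhead genes that start within 100 kb of each other, in kb from the first start site, with dotted lines at start sites and boxes for peaks drawn to scale (red for peaks assigned to forkhead genes, grey for Mthfsd). Within 50 kb of the start sites the chromosome 8 group has 7 peaks, the Foxq1 and Foxf2 group 3, and the Foxd2 and Foxe3 group 2, and no box covers the Foxl1 start.

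Of the endoderm genes only Foxa2 had assigned peaks. Foxa2, which specifies definitive endoderm, node and floor plate, had 7, at -44862 bp (942 bp wide), -6417 bp (993 bp wide), -1843 bp (1192 bp wide), 507 bp (1282 bp wide), 14958 bp (773 bp wide), 138893 bp (571 bp wide) and 139534 bp (692 bp wide). The most distant pair was separated by 10 bp, and both held the forkhead letters printed above. The peak at 507 bp reached only 134 bp upstream of its TSS and 1147 bp downstream. Foxa1, a partner of Foxa2 in liver and lung, had none, and its nearest peak, assigned to Ttc6, was at -30110 bp. Foxa3, of liver and gut, had none under its own name, while a peak of 1881 bp assigned to Sympk overlapped its promoter with a midpoint at -461 bp. For reference, the liver genes Alb and Ttr had 1 peak each away from the start and Afp had none.

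In the list of neural and neural crest genes 8 of 10 had a peak, with 14 peaks in all, beside 62.5% of all coding genes. The list is broad and also holds Foxq1, described below for its hair phenotype. Foxb1, of hypothalamus and brainstem, had 4, at 152 bp (1320 bp wide), 73048 bp (967 bp wide), 90317 bp (1289 bp wide) and 92189 bp (1005 bp wide). The last pair lay 725 bp apart. Foxd3, a gene of neural crest and of pluripotent cells, had a start site peak of 2675 bp at 704 bp and 1 peak of 908 bp at -83336 bp. Foxd1, of forebrain and kidney stroma, had a start site peak of 1947 bp at 437 bp and 1 peak at 11840 bp. Single start site peaks marked Foxd2 (1445 bp at -134 bp), of kidney and craniofacial mesenchyme, and Foxp2 (2145 bp at -250 bp), of motor and vocal circuits.

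Of the remaining genes of this list described here, Foxq1 alone had a peak midpoint within 1 kb of its start. The 1 peak of Foxd4 had its midpoint at 1160 bp and covered 63.2% of this single exon gene. Foxq1, mutated in satin mice with altered hair, had peaks at -29 bp (1074 bp wide) and 1609 bp (1086 bp wide), the second at -446 bp from the start of A530084C06Rik. Foxb2 of the brain had no peak, and the nearest was at -82223 bp, while the peak nearest to Foxn4 of retina and spinal cord was at -41310 bp.

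Broadly expressed genes held as many peaks as the heart and mesoderm genes, 31, over 10 of 11 genes, beside 62.5% of all coding genes with a peak. Foxo1, a target of insulin signalling that also acts in vessel formation, had 9, the most of the family. Upstream they lay at -72142 bp (980 bp wide), -14062 bp (882 bp wide) and -10358 bp (845 bp wide), and at the start was 1 of 2225 bp at 278 bp. Downstream were peaks at 60596 bp (1394 bp wide), 132570 bp (2152 bp wide), 145167 bp (806 bp wide), 183404 bp (479 bp wide) and 195740 bp (537 bp wide). The peak at 132570 bp was nearly as wide as that at the start, and that at 183404 bp was the narrowest of all forkhead gene peaks.

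The other FoxO genes had fewer peaks. Foxo3, which promotes quiescence and stress resistance, had the widest forkhead peak, 5357 bp at 608 bp, and 1 of 1078 bp at 83580 bp. Foxo6, of brain and liver metabolism, had peaks at -270 bp (2239 bp wide), 9556 bp (842 bp wide) and 34549 bp (1162 bp wide). The X-linked Foxo4 had 1 peak of 1410 bp at -48 bp. Every FoxO gene thus had a start site peak, and their number of peaks ranged from 1 to 9. All of their promoters were CpG-rich, and 89.4% of all CpG-rich coding promoters overlapped a peak.

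Foxk1 and Foxk2 are repressors linked to muscle progenitors and metabolism, and they differed as the Foxc genes did. Foxk1 had 7 peaks, of which 4 were upstream at -416314 bp (549 bp wide), -271243 bp (849 bp wide), -81919 bp (748 bp wide) and -33935 bp (1285 bp wide). The first pair fell in introns of Sdk1, the neighbouring gene, and the peak at -416314 bp was the farthest from its start of all 97. At and inside Foxk1 were peaks at 283 bp (1603 bp wide), 14958 bp (1117 bp wide) and 23502 bp (1273 bp wide). Foxk2 had only its start site peak, 2069 bp wide at 102 bp.

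Foxj2 had peaks at -18442 bp (1350 bp wide), -8814 bp (2312 bp wide) and 229 bp (1640 bp wide), and the first of these lay at -102 bp from the start of the glucose transporter gene Slc2a3. Foxj3 had 1 peak of 1611 bp at -25 bp, and Foxn2 had 1 of 2256 bp at 416 bp and 1 of 861 bp at -106653 bp. Foxn3, a checkpoint suppressor, had peaks at 57290 bp (2422 bp wide) and 120290 bp (1334 bp wide). The first of these was only 1013 bp from a GENCODE start site of Foxn3 and 60.1% GC, so its listed distance depends on the start site chosen. Foxm1, a driver of mitotic gene expression, had no peak under its own name. A peak of 1284 bp listed for Rhno1, which starts beside it, had its midpoint at -16 bp from the Foxm1 start.

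Of the 11 genes of epithelia, immune cells, germ line and cilia, 7 had a peak, with 14 in all, a share close to the 62.5% of all coding genes. Foxi3, of otic placode and ectodermal organs, had 5, at 104 bp (1285 bp wide), 7833 bp (1261 bp wide), 11047 bp (1091 bp wide), 56469 bp (1172 bp wide) and 65035 bp (757 bp wide), none of them upstream. Foxl2, the ovary regulator, had 1 wide start site peak of 3089 bp at 426 bp. Foxj1, the master gene of motile cilia, had 1416 bp at -190 bp and 1608 bp at 8203 bp. These genes are known from tissues other than the heart. Of the 5 start site peaks in this group those of Foxl2, Foxj1 and Foxe3 were wider than the median of 1326 bp over all start site peaks, and those of Foxi3 and Foxi2 were narrower.

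The lens gene Foxe3 had 1 peak of 1415 bp at 617 bp that covered 100% of its single exon. Foxi2 had the smallest start site peak of the family, 830 bp at 24 bp. The thyroid gene Foxe1 had 3 peaks at -66834 bp (814 bp wide), -39965 bp (797 bp wide) and -39035 bp (835 bp wide), the last pair 114 bp apart, and none at its start. Foxi1, of inner ear and kidney, had 1 of 621 bp at -21064 bp. No peak was assigned to Foxn1 of the thymus, Foxp3 of regulatory T cells, Foxr1 or Foxr2. Their nearest peaks lay at -11027 bp (Foxn1), -5468 bp (Foxp3), -13763 bp (Foxr1) and 21294 bp (Foxr2), each named for another gene.

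Over the whole family, a smaller share of peaks lay at start sites than over all genes, and a larger share lay far from them. Within 1 kb were 29 of 97 (29.9%, 21.7 to 39.6%), against 44.9% of all peaks. These are shares of peaks and not of genes, and additional distant peaks of a gene lower them. Start site peaks numbered 29 over 34 forkhead genes with a peak, and 11772 over all 15351 genes with a peak. The lower share thus does not mean that forkhead start sites had a peak less often. Beyond 10 kb were 54 (55.7%, 45.8 to 65.2%), against 41.4%, and beyond 100 kb 16 (16.5%, 10.4 to 25.1%), against 8.20%. Of the peaks more than 1 kb away 25 were upstream and 43 downstream (63.2% downstream, 51.4 to 73.7%), against 55.8% of all peaks. By annotation 36 midpoints were intergenic (37.1%, 28.16 to 47.05%), against 28.24% of all peaks. Intronic midpoints numbered 27 (27.8%, 19.9 to 37.5%), against 22.2%. For the downstream, intergenic and intronic shares the value over all peaks lay inside the interval of the forkhead gene peaks.

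Start site peaks of forkhead genes had a higher median width than those of all genes, while the widths over all distances were close. The median width over all 97 peaks was 1162 bp (95% interval 1074 to 1285 bp), and the 1081 bp over all peaks lay inside that interval. At start sites the median was 1947 bp with quartiles of 1410 and 2239 bp, and over all start site peaks it was 1326 bp with quartiles of 1072 and 1691 bp. At CpG-rich promoters alone the medians were 1980 bp (23 peaks, 95% interval 1445 to 2256 bp) and 1411 bp. Promoters were classed at the first coding TSS of the gene, which is not the start under every peak. Foxk2 was thus classed as CpG-poor, though its start site peak had 63.2% GC and a CpG ratio of 0.865. Beyond 10 kb the medians were 968 bp and 880 bp, so the widths differed most at the start. Peaks over 2 kb wide made up 16.5% (16 peaks) of forkhead gene peaks and 8.07% of all peaks.

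**Figure D4:**
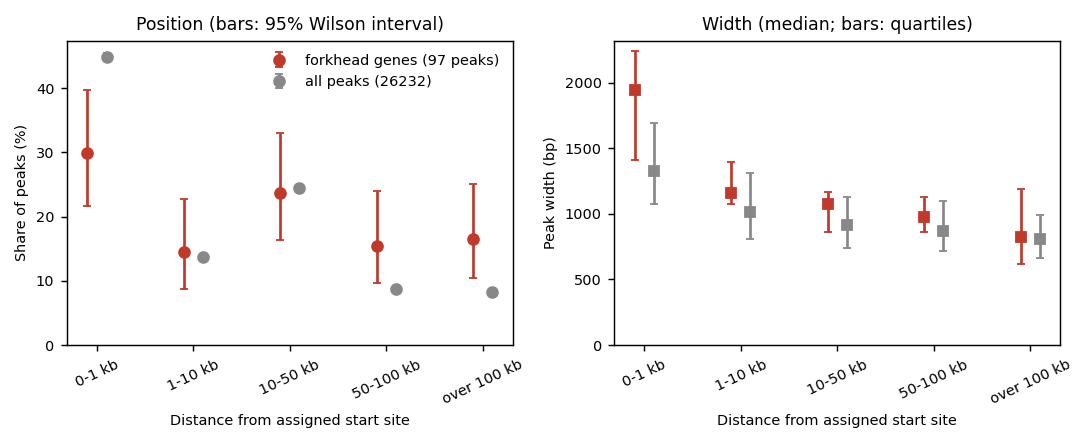
Left, share of peaks (%) in 5 classes of distance from the assigned start site with 95% Wilson intervals, and right, median peak width (bp) with quartiles as bars, for forkhead gene peaks (red) and all peaks (grey). A smaller share of forkhead gene peaks lies within 1 kb, 29.9% against 44.9%. Their median width there is higher, at 1947 bp against 1326 bp. The shares are of peaks and not of genes.

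The start site peaks reached a median of 970 bp downstream of the TSS (95% interval 747 to 1391 bp), against 719 bp over all genes. The values over all genes in this paragraph cover 10691 of the 11772 start site peaks. Upstream the median was 752 bp (537 to 931 bp), and the 598 bp over those 10691 peaks lay inside that interval. The midpoint of the forkhead start site peaks was downstream in 19 of 29 (65.5%, 47.3 to 80.1%), against 64.4% of the 10691 peaks. In the annotation 11 of 44 forkhead genes had a single exon, beside 12.7% of all coding genes, and 8 of these had a start site peak, which together with any other peak covered a median of 58.2% of the gene (range 22.5 to 100%).

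**Figure D5:**
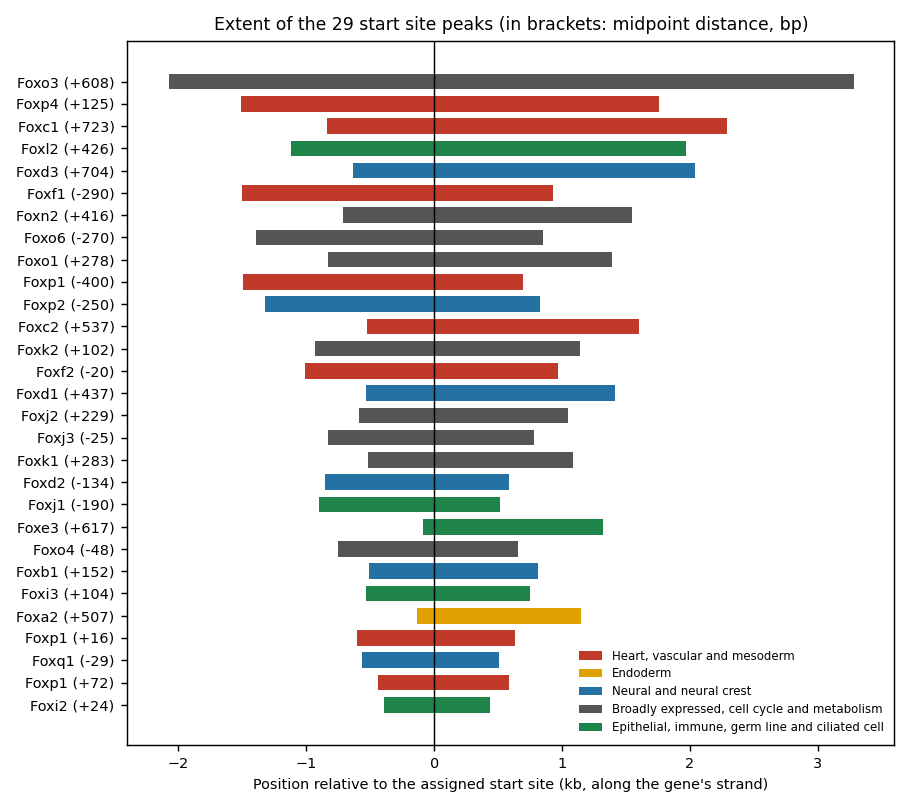
Extent of each of the 29 start site peaks in kb from the assigned start site along the gene's strand, sorted by width and coloured by role, with the midpoint distance in brackets. Foxo3 reaches 2071 bp upstream and 3285 bp downstream, the peaks of Foxc1 and Foxd3 extend mainly into the gene, and that of Foxi2 is the shortest at 830 bp.

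Start sites were also counted from the annotation, without use of the assigned symbol. Of 43 forkhead genes with an annotated coding start, 29 had a peak that overlapped the promoter (67.4%, 52.5 to 79.5%), against 53.7% of all promoters. The promoter ran from 500 bp before to 500 bp after the first coding TSS of a gene. At CpG-rich promoters the count was 24 of 30 (80.0%, 62.7 to 90.5%), against 89.4%, and at CpG-poor promoters 5 of 13 (38.5%, 17.7 to 64.5%), against 24.9%. In all 3 counts the share over all promoters lay inside the interval of the forkhead genes. The CpG-rich promoters without a peak included those of Foxa1, Foxb2, Foxe1, Foxn4 and Foxr1, genes of endoderm, brain, thyroid and germ line. The CpG-poor promoters with one were those of Foxa2, Foxa3, Foxd4, Foxi2 and Foxp1. Foxk2 counted as CpG-poor without a peak, since its first coding TSS lay 4595 bp from the midpoint of its start site peak.

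Genes that work with forkhead factors were counted from a list of 19, of which 18 had a peak, 59 in all, beside 62.5% of all coding genes, and 13 had one at the promoter, beside 53.7% of all coding promoters. With Foxh1 in Nodal signalling, the ligand gene Nodal had 2 peaks and the transducers Smad2, Smad3 and Smad4 had 5, 6 and 1, all 4 with a peak at the promoter. Upstream of the Foxf genes, the Hedgehog effectors Gli3 and Gli2 had 9 and 8 peaks, the ligand gene Shh 1 at -2806 bp and the receptor gene Ptch1 3, the nearest at -2330 bp. Of the regulators of FoxO factors, the kinase gene Akt2 had 3 peaks and Akt1 none, while Sirt1 and Sgk1 had 2 each. Sirt1 and Sgk1 had peaks at -17 bp and -171 bp from an assigned start site. They are not among the 13, because the promoter was taken at the first coding TSS. The corepressor genes Bap1 and Chd4 had 2 peaks each and Sin3a had 1. Tbx1, a target of Foxc and Foxa factors in pharyngeal mesoderm, had 1 peak at 31605 bp.

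The label of the cells was compared with marker genes, although a peak at a gene is no measure of its expression. Against the 62.5% of all coding genes with a peak, 6 of 7 cardiac progenitor markers had peaks, 29 in all, with Isl1 at 8 and Tbx20 at 6, and Hand2 had none. Peaks were also listed for 3 of 4 blood and endothelial markers (5 peaks), 3 of 3 neural markers (7 peaks), 2 of 3 liver markers (2 peaks) and 2 of 3 pluripotency markers (4 peaks). A peak at the promoter of the first coding TSS was found for 4 cardiac, 0 blood and endothelial, 1 neural, 0 liver and 1 pluripotency markers. Over all coding promoters the share was 53.7%. Mef2c and Pax6 counted as without one, though they had peaks at 16 bp and -368 bp from an assigned start site. With lists this short and that background, these counts do not identify the cells. Their part in the forkhead peaks was not tested.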

How the data were processed

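Open chromatin was profiled by ATAC-Seq in 2 replicates of day 5 CPCs. Per the study's methods, the authors mapped reads to mm9 with Bowtie2, removed duplicates with Picard 1.136, called peaks in each replicate with MACS, dropped blacklisted regions and kept peaks that overlapped between replicates by at least 1 bp with bedtools 2.15. The methods describe assignment to the nearest start site with HOMER for the ChIP-Seq peaks, and the source of these columns in the ATAC-Seq list is not given in the sources used here. Reads were shifted by a fixed length at peak calling, and no further correction for the Tn5 cut position is described. This and the depth of each library, which is unknown, affect peak width. The deposited list has 6 columns, with start, end and distance in bp, an accession and a symbol, and no score or count. The methods name the bedtools option -wa for the overlap, so the listed start, end and width may be those of 1 replicate. The list may hold only part of the original lines.

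Distinct intervals were counted once and positions are 1-based. The forkhead symbols stood on 99 lines, since the start site peaks of Foxo1 and Foxo3 were repeated. Sequence came from NCBIM37 (mm9) and gene models from GENCODE vM1, in which Foxf1 is named Foxf1a and Foxl1 is typed as a pseudogene, so it has no coding promoter here. All 44 forkhead symbols of the RefSeq table (GRCm38.p6, names only) matched. For 69.1% of forkhead peaks the listed distance equalled that to a GENCODE start site of the gene within 1 bp. CpG-rich promoters had a GC content of 50% or more and at least 0.6 times the CpG dinucleotides that their base composition predicts. Territories used coding symbols present in both gene tables. Median intervals are from order statistics at 95%. With 1 group and no value per replicate, no test was made.

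Member genes are named, except 1 that, like some listed partner genes, is not reported here though it stays in the counts. Genes with 3 or more peaks and the heart and mesoderm genes are described peak by peak, and genes without a peak by the nearest one. The members, roles and gene lists were chosen with earlier results of these data known. Scripts used Python 3.11.15, numpy 2.4.6, scipy 1.17.1 and pysam 0.24.0 and were tested on simulated data.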

Additional observations from a re-analysis of the deposited data

How the results depend on the processing

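Of 33 recomputed values 27 stayed inside the interval of the reported value or within 1.5 times a count, and 6 moved. Keeping only peaks wider than the median of all peaks left 56 forkhead peaks, and their median width necessarily rose, to 1415.5 bp. The upper quartile of width over all peaks, about the median of all peaks so filtered, was 1433 bp. The higher median width of forkhead peaks was thus not kept. Under this filter 46.4% of forkhead peaks lay within 1 kb and 35.7% beyond 10 kb, against 66.5% and 21.8% of all peaks so filtered. The exact forkhead letters were in 5.36% against 2.37%, so the differences in distance and in letters kept their direction. Searching the whole peak for the forkhead letters gave 20.6% of forkhead gene peaks and 12.2% of all peaks. The looser letters TNTTTNC in the central 300 bp gave 40.2% and 38.3%, so the difference seen with the exact letters was nearly lost, and the cause was not tested. Counting every line, keeping peaks of at least 500 bp, assigning peaks to the nearest GENCODE coding start (97 peaks, of which 88 were shared with the reported set), measuring distance to any GENCODE start of the gene, widening the promoter to 1 kb on either side or using any start site (72.1%), and the central 500 bp (11.3%) moved no value beyond its interval or 1.5 times a count. No paired analysis was possible because the list holds no value for a single replicate. For the same reason neither replicate could be left out, and depth, which limits which peaks were called, is unknown.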

Other observations

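Other families of developmental transcription factors gave values of the same kind. The 17 Sox genes with a peak held 45 peaks, a mean of 2.65 per gene, with 28.9% (95% Wilson confidence interval 17.7 to 43.4%) within 1 kb of the assigned start site and 55.6% (41.2 to 69.1%) beyond 10 kb. The 9 T-box genes with a peak held 27 peaks, a mean of 3.0 per gene, with 22.2% (10.6 to 40.8%) within 1 kb and 63.0% (44.2 to 78.5%) beyond 10 kb. The intervals of both families overlapped those of the forkhead genes. Start site peaks had a median width of 1467 bp at Sox genes (13 peaks) and 1573.5 bp at T-box genes (6 peaks), both below the 1947 bp at forkhead genes, and the differences were not tested. Those of Sox genes had a median GC content of 63.9% and CpG ratio of 0.761, and those of T-box genes 58.3% and 0.740. Beyond 10 kb the exact forkhead letters were in 1 of 25 Sox peaks (4.0%) and 2 of 17 T-box peaks (11.8%). Per 100 kb of territory Sox genes had 0.753 peaks (40 peaks over 18 genes with a territory) and T-box genes 0.951 (27 peaks over 13 genes). These counts leave out peaks of genes without a territory and include genes without a peak.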
